A study of Homo sapiens with 12 samples.

Results

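The urea cycle enzymes, their mitochondrial carriers and both arginases were examined in Huh7 cells treated with Molidustat. These 9 genes, *CPS1*, *OTC*, *ASS1*, *ASL*, *ARG1*, *ARG2*, *NAGS*, *SLC25A13* and *SLC25A15*, were taken by name from the 60666 genes listed in every count file, and all of them were found by their Ensembl identifier. Huh7 is an established human line from a hepatocellular carcinoma. Molidustat blocks prolyl hydroxylases, enzymes that tag hypoxia-inducible factor alpha subunits for destruction when oxygen is present. Cells received 25 µM Molidustat or DMSO, the solvent, alone for 24 h or 48 h, which makes 4 groups of 3 libraries. The groups carried no other agent or genetic change, and all came from the same tumour line, which limits them as a model of hepatocytes.

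In the liver, the urea cycle turns ammonia into urea across the mitochondrion and the cytosol. Carbamoyl phosphate is made and joined to ornithine in the mitochondrion, citrulline and aspartate are joined and split to arginine in the cytosol, and arginase cleaves arginine to urea and ornithine. *ARG1* encodes the cytosolic arginase that is abundant in hepatocytes, and *ARG2* encodes the mitochondrial paralog found mainly in other tissues. Hepatoma lines are known to keep only part of this pathway.

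Among the 9 genes, *ARG1* was the one that rose under Molidustat. Its level was about 10-fold that of DMSO at both times, at 102 ± 34.3 against 10.6 ± 5.34 CPM at 24 h and 280 ± 84.9 against 27.6 ± 11.6 CPM at 48 h (mean ± SD, n = 3). CPM are gene counts scaled to a common library total, adjusted between libraries by edgeR's TMM factors. None of the other 6 genes tested passed the test, and the remaining pair, *CPS1* and *OTC*, had too few reads to pass the filter on low counts.

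Between 1499273 and 9179389 reads were counted on genes per library. DMSO 48 h replicate 2, the library with the lowest count, stood apart from the rest: 50.4% of its reads fell outside annotated genes, against 17.1% to 25.6% in the other 11. The correlation of its log2 CPM with those of the other libraries was 0.707 to 0.782, and its TMM factor was 0.629 against 1.01 to 1.08 elsewhere. A gene without a read in this library could have been as high as 3.19 CPM, the level of 3 counts, so many fold changes are also given without it. Such limits cover counting error only.

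The Huh7 label was checked against marker genes. The 10 hepatocyte and hepatoma markers, with *AFP*, the fetal albumin homologue, as the most abundant, were all detected, and their summed level was 8472 to 30268 CPM. That sum was higher under Molidustat, at 21001 ± 2206 against 14249 ± 1190 CPM at 24 h and 27617 ± 2483 against 14639 ± 5343 CPM at 48 h, and 2 of the 10 markers, *TF* and *SERPINA1*, were called higher in the mean of both times. Without DMSO 48 h replicate 2, 2 markers, the same genes, were called at 24 h and at 48 h as well, and DESeq2 called 1, 3 and 3 markers at 24 h, at 48 h and in the mean. At 48 h, 9 of the 10 markers had a positive log2 fold change, and *APOB* went the other way, at 894 ± 12.3 against 1228 ± 410 CPM. Its log2 fold change there was -0.46 ± 0.33, and -0.67 without DMSO 48 h replicate 2, not called by edgeR. The DMSO sum at 48 h was 17881, 8472 and 17562 CPM by replicate, so the second lowered the mean and the Molidustat sums lay above the others too. The part of this shift in the *ARG1* difference was not tested. Of 8 erythroid and neutrophil markers, cell types that also carry arginase 1, 7 were at 0 in every library, and their summed level never exceeded 0.723 CPM, all from *ALAS2*. Of 6 macrophage markers, 3 were at 0 throughout, and their sum was almost all *LYZ*, lysozyme, with a mean of 130 CPM. That sum was 157 in Molidustat against 192 CPM in DMSO at 24 h, with overlap, and 63.2 against 125 CPM at 48 h, without overlap. *CD14*, the other macrophage marker tested, went the opposite way, at 3.2 against 1.22 CPM at 24 h and 8.92 against 1.77 CPM at 48 h, and neither gene was called by edgeR. DESeq2 called *LYZ* lower at 48 h. The sum of these markers moved with the treatment at 48 h, and its part in the results was not tested. Endothelial markers, with 3 of 5 at 0, summed to at most 6.45 CPM, their most abundant gene *PECAM1* averaging 1.72 CPM. Stellate cell and fibroblast markers, with 1 of 6 at 0 and *LUM* the most abundant at 3.1 CPM, summed to 3 ± 2.15 CPM in Molidustat and 5.13 ± 3.09 CPM in DMSO at 24 h. At 48 h they summed to 12.3 ± 3.39 against 3.33 ± 3.04 CPM, without overlap, and the part of this difference in the results was not tested. In bulk RNA, a change in the number of cells of a type and a change in RNA per cell cannot be told apart.

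*NAGS*, *CPS1* and *OTC* carry out the mitochondrial entry steps. *NAGS* makes N-acetylglutamate, the obligatory activator of carbamoyl phosphate synthetase. It had 115 reads over the 12 libraries, with 0, 3.08 and 1.45 CPM in the DMSO 24 h replicates and 0, 2.43 and 1.15 CPM in those of Molidustat. At 48 h it was at 1.9, 0 and 3.2 CPM in DMSO and 3.37, 0.429 and 2.44 CPM in Molidustat. The groups overlapped at both times, and the log2 fold changes of -0.21 ± 1.43 and 0.15 ± 1.39 (± SE) had 95% intervals reaching from -3.25 to 2.83 and from -2.81 to 3.11. Leaving out 1 library at a time moved these values between -1.18 (without Molidustat replicate 2) and 0.76 (without DMSO replicate 2) at 24 h, and between -0.36 (without Molidustat replicate 1) and 0.82 (without DMSO replicate 3) at 48 h. At this depth, a change of *NAGS* by several fold in either direction could not have been detected.

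*CPS1*, the mitochondrial carbamoyl phosphate synthetase, is one of the most abundant proteins of hepatocyte mitochondria. Only 30 reads of it were counted in all. The DMSO replicates held 4, 9 and 0 reads at 24 h and 4, 0 and 7 reads at 48 h, and the Molidustat replicates 0, 6 and 0 reads at 24 h and none at 48 h. Reads were thus seen in 4 of 6 DMSO libraries and in 1 of 6 Molidustat libraries, at no more than 3.47 CPM. No *CPS1* read in the 3 Molidustat libraries at 48 h allows a level of up to 0.248 CPM over that group.

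*OTC*, which joins carbamoyl phosphate to ornithine, had 27 reads in all. No read was found in any DMSO library at 24 h or any Molidustat library at 48 h. The Molidustat 24 h replicates held 0, 0 and 7 reads, and the DMSO 48 h replicates 15, 0 and 5, with 2.03 CPM as the highest level. Both genes were removed by the filter on low counts, which left 14274 genes. DESeq2 and edgeR with no filter tested them and called neither under Molidustat, and no fold change is given at these counts.

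*ASS1* and *ASL* carry out the cytosolic steps from citrulline to arginine. *ASS1*, argininosuccinate synthetase, stood at 6.2, 7.7 and 7.85 CPM in the DMSO 24 h replicates and at 6.45, 15.9 and 6.92 CPM with Molidustat. At 48 h it was at 19.7, 10.6 and 10.9 CPM in DMSO and at 16.9, 25.3 and 23.1 CPM in Molidustat. The groups overlapped at both times, with log2 fold changes of 0.45 ± 0.48 (95% interval -0.58 to 1.48) and 0.64 ± 0.48 (-0.37 to 1.65). Leaving out 1 library at a time moved them to between -0.11 (without Molidustat 24 h replicate 2) and 0.66, and to between 0.47 and 1.02 (without DMSO 48 h replicate 1). The *ASS1* levels at 48 h lay above every 24 h level within each treatment, by 0.94 ± 0.49 on the log2 scale in DMSO and 1.13 ± 0.48 in Molidustat, and neither passed edgeR's quasi-likelihood test after adjustment over all genes by the Benjamini-Hochberg method (adjusted p = 0.656 and 1).

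*ASL*, argininosuccinate lyase, was detected in every library with 99 to 1671 reads. Its 24 h levels were 102, 124 and 70.4 CPM in DMSO and 135, 100 and 78.8 CPM in Molidustat. The 48 h levels were 147, 105 and 173 CPM in DMSO and 131, 80.2 and 177 CPM in Molidustat. The groups overlapped throughout, and the intervals of the log2 fold change, -0.68 to 0.84 at 24 h and -0.89 to 0.62 at 48 h, stay within a log2 change of 1. Leaving out 1 library at a time turned the direction of both estimates, to between -0.14 (without Molidustat 24 h replicate 1) and 0.27 at 24 h and between -0.44 and 0.10 (without Molidustat 48 h replicate 2) at 48 h. A protein-coding gene model on the same strand, ENSG00000249319, shares 563 exon bases with *ASL*, and reads in that stretch may have been left uncounted or split. It was not called either (log2 fold change 0.08 and 0.22).

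The arginase of the hepatic cycle, *ARG1*, regenerates the ornithine with which the cycle starts again. At 24 h, the DMSO replicates were at 5.05, 11.2 and 15.7 CPM, from 22, 29 and 76 reads. The Molidustat replicates were at 74.2, 140 and 91.1 CPM, from 207, 1155 and 474 reads. The lowest Molidustat level was well above the highest DMSO level, and the log2 fold change was 3.26 ± 0.47 (95% interval 2.26 to 4.25, 9.56-fold, edgeR adjusted p = 0.00351).

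At 48 h, *ARG1* stood at 30.4, 14.9 and 37.5 CPM in DMSO, the second of these being the library that stood apart. With Molidustat it stood at 274, 198 and 368 CPM. The groups again did not overlap, and the log2 fold change was 3.29 ± 0.46 (2.32 to 4.27, 9.81-fold, edgeR adjusted p = 0.00345). Without DMSO 48 h replicate 2 it was 3.03 (edgeR adjusted p = 0.00143). Averaged over both times, *ARG1* rose 9.68-fold (log2 3.28 ± 0.33, edgeR adjusted p = 4.29e-05), which placed it 12th by p-value among the 14274 genes tested.

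*ARG1* was the 1 member called of 7 tested at 24 h, at 48 h and in their mean, where a call needs edgeR's adjusted p to be under 0.05 and the fold to exceed 1 on the log2 scale in either direction. Besides *ARG1*, no member tested had an unadjusted p under 0.05 by edgeR with all 12 libraries in 1 filtered fit, and DESeq2 and limma-voom also called *ARG1* alone, with *ARG2* under an unadjusted 0.05 at 24 h in both. *ARG2* was also under 0.05 at 24 h by edgeR with each time alone, with no filter, without DMSO 48 h replicate 2 and without Molidustat 24 h replicate 1, and with no filter so were *OTC* at 48 h and *CPS1* in the mean, none of them called. The same call was made for 0.231% of all genes at 24 h, 0.231% at 48 h and 1.03% in the mean. Levels did not overlap between treatments in 2 of 7 members at 24 h, *ARG1* and *ARG2*, and in 1 of 7 at 48 h, *ARG1*, where 12.3% and 18% of all genes tested did not overlap. The median log2 fold change of the 7 members was -0.21 at 24 h and 0.15 at 48 h, beside 0.02 and 0.01 over all genes. At 48 h, fitting each time point on its own gave *ARG1* the same log2 fold change of 3.29 with an edgeR adjusted p of 0.0569, and the call was lost.

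The Molidustat effect on *ARG1* differed little between the times, by 0.04 ± 0.64 on the log2 scale (95% interval -1.33 to 1.41), an interval that leaves room for a 2-fold difference in either direction. In the filtered fit of all 12 libraries, edgeR called no member for this difference, and none had an unadjusted p under 0.05. With no filter on low counts it also called 0 members, with 1, *OTC*, under 0.05. DESeq2 and limma-voom also called 0, with 1 member under 0.05 in each, *ARG2*. Of all genes in the filtered edgeR fit, 0% were called.

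With time, *ARG1* levels were higher in both treatments, without passing edgeR's test. Its group means were in the order DMSO 24 h, DMSO 48 h, Molidustat 24 h and Molidustat 48 h, at 10.6, 27.6, 102 and 280 CPM. The DMSO groups overlapped through DMSO 48 h replicate 2 alone, without which the DMSO 48 h mean was 33.9 CPM, whereas DMSO 48 h and Molidustat 24 h, and the Molidustat groups, did not. The log2 difference of 48 h over 24 h was 1.42 ± 0.45 in DMSO (unadjusted p = 0.00616, adjusted p = 0.541 by edgeR) and 1.46 ± 0.43 in Molidustat (unadjusted p = 0.00365, adjusted p = 1 by edgeR). With all 12 libraries and edgeR's filter on low counts, edgeR called 0 members between times in either treatment, as did DESeq2 and limma-voom on all 12. *ARG1* was called between times in DMSO by edgeR with no filter, and in both treatments by DESeq2 without DMSO 48 h replicate 2. At an unadjusted p under 0.05, edgeR had 1 member in DMSO, *ARG1*, and 2 in Molidustat, *ARG1* and *ASS1*. That level was reached by 8.14% and 4.58% of all genes tested. Without DMSO 48 h replicate 2 edgeR had 3 in each, adding *ASL* and *ASS1* in DMSO and *ARG2* in Molidustat, beside 4.03% and 9.24% of all genes. Of all genes in the filtered fit of all 12 libraries, 0.00701% were called in DMSO and 0% in Molidustat.

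*ARG1* overlaps a neighbouring gene. In GENCODE 44, *ARG1* spans chr6:131470832-131584332 on the forward strand of GRCh38 and overlaps *MED23*, a Mediator subunit gene on the opposite strand, with 0 shared exon bases. For *MED23* the fold changes were 0.24 ± 0.45 and -0.16 ± 0.45 on the log2 scale at 24 h and 48 h, and it was not called. Whether reads were counted by strand is not given in the sources used here.

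*ARG2*, the mitochondrial arginase, is not needed for the hepatic cycle and supplies ornithine for other uses. At 24 h it stood at 15.4, 13.5 and 8.68 CPM in DMSO and at 7.17, 2.06 and 4.61 CPM in Molidustat. All 3 Molidustat levels lay below the DMSO levels, from 17 to 24 reads against 35 to 67. The log2 fold change was -1.47 ± 0.76 (95% interval -3.08 to 0.14) and did not pass edgeR's test (adjusted p = 0.989).

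At 48 h, *ARG2* was at 12.1, 0 and 9.3 CPM in DMSO and at 9.44, 10.7 and 11.8 CPM in Molidustat. The groups overlapped, and the log2 fold change of 0.45 ± 0.73 became -0.01 without DMSO 48 h replicate 2, the library without a read, and up to 0.91 without another library. The Molidustat effects at the 2 times differed by 1.92 ± 1.05 on the log2 scale (edgeR adjusted p = 0.806). *VTI1B*, a SNARE protein gene on the opposite strand, shares 904 exon bases with *ARG2*, and its log2 fold changes were -0.26 and -0.20, neither called. Reads of *ARG2* in this stretch are therefore uncertain.

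The balance of the arginases was followed as the log2 ratio of *ARG2* to *ARG1* reads within each library, with 0.5 added to each count, so that no scaling between libraries entered it. In DMSO at 24 h the ratio was 1.58, 0.27 and -0.85. In Molidustat at 24 h it was -3.34, -6.05 and -4.28, where the counts themselves gave 10.3, 67.9 and 19.8 *ARG1* reads per *ARG2* read. At 48 h, it was -1.33, -4.86 and -2.01 in DMSO and -4.84, -4.18 and -4.95 in Molidustat, and the single DMSO value among those of Molidustat came from replicate 2, with 14 *ARG1* reads and no *ARG2* read. *ARG2* reads in the stretch shared with *VTI1B* may have been left uncounted, so the level of the ratio is uncertain.

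Over both times, the ratio was lower in Molidustat by a log2 difference of -3.41, or 10.6-fold (two-sided exact permutation test within time points, p = 0.015, 400 arrangements, smallest p 0.005). Without DMSO 48 h replicate 2 the difference was -3.94 (exact p = 0.005, the smallest possible). At 24 h alone it was -4.89 (exact p = 0.1, the smallest that 3 against 3 libraries allow), and at 48 h alone -1.93 (exact p = 0.3), or -2.99 without replicate 2 (exact p = 0.1). The ratio repeats the *ARG1* counts above and is no separate evidence on *ARG1*.

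The start regions of both arginase genes are shown because the paralogs differed in their response. Hypoxia-inducible factors bind a short core, ACGTG or GCGTG, and matches on either strand are in capitals (CACGT and CACGC when read on the reverse strand). Each run has 300 bases, from 250 before to 50 after the RefSeq start on GRCh38.p14, forward strand. The *ARG1* window, chr6:131572976-131573275, lies inside the GENCODE gene, which also includes transcripts starting further upstream.
ARG1: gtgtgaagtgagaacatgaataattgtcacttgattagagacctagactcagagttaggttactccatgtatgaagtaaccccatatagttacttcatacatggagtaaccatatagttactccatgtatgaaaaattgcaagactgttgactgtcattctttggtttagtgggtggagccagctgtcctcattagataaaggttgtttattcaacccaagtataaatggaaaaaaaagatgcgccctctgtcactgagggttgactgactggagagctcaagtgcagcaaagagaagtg
ARG2: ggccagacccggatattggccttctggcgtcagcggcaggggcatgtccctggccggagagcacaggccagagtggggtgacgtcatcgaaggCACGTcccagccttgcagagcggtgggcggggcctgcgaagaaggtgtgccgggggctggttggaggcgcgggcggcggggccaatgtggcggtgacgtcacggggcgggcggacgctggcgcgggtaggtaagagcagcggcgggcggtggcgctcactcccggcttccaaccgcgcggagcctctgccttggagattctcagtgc

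The *ARG1* window holds 0 matches and 40% G and C, and the *ARG2* window, chr14:67619670-67619969, holds 1 match, 157 bases before the start, and 71% G and C. RefSeq windows were found for all 9 genes, 12 windows in all. At least 1 match was present in 6 of the 12 windows, each of a different gene (*CPS1*, *OTC*, *ASS1*, *ARG2*, *SLC25A13* and *SLC25A15*) and none in those of *ARG1*, *ASL* and *NAGS*. Over 35116 windows of this length, 21.4% hold ACGTG, 36.5% hold GCGTG and 48.4% hold either. The palindrome CACGTG counts on both strands. A match is a description of the letters, and the absence of one in this window says nothing of more distant sites.

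The carriers link the mitochondrial and cytosolic steps. *SLC25A15* exchanges ornithine and citrulline across the inner membrane. It was at 19.8, 5.39 and 14 CPM in DMSO and 14, 3.64 and 7.5 CPM in Molidustat at 24 h, and at 12.6, 0 and 19.1 CPM against 5.39, 10.3 and 16.9 CPM at 48 h. The groups overlapped, and the log2 fold changes were -0.68 ± 0.82 and -0.07 ± 0.81. With 1 library left out, these ranged from -1.25 (without Molidustat 24 h replicate 1) to -0.26 (without DMSO 24 h replicate 1) and from -0.58 (without Molidustat 48 h replicate 3) to 0.55 (without DMSO 48 h replicate 3). *SLC25A13*, the aspartate and glutamate carrier citrin, supplies aspartate for argininosuccinate synthesis. Its levels were 26.2, 36.2 and 58.5 CPM in DMSO and 31.2, 18.8 and 35.4 CPM in Molidustat at 24 h, and 41.9, 26.6 and 30.5 CPM against 31.5, 46.8 and 27.1 CPM at 48 h. The groups overlapped here too, with log2 fold changes of -0.51 ± 0.39 and 0.07 ± 0.39, which moved to between -0.74 and -0.15 and to between -0.20 (without Molidustat 48 h replicate 2) and 0.29 (without DMSO 48 h replicate 1).

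Genes around the cycle were followed in 5 lists with 66 genes, of which 55 were tested. By edgeR, 0 of the 55 were called at 24 h, at 48 h or in the mean, with 1, 8 and 5 at an unadjusted p under 0.05, a level that 5.25%, 13.3% and 11% of all genes tested reached. With 1 library left out, these counts ranged from 0 (without DMSO 24 h replicate 1 or DMSO 48 h replicate 3) to 3, from 3 (without Molidustat 48 h replicate 3) to 8, and from 4 to 10. Without DMSO 48 h replicate 2 they were 3, 7 and 10. For the 24 h contrast DESeq2 called 0, and for the 48 h contrast 2, *SLC38A3* higher and *AGMAT* lower, and limma-voom called 0 at 24 h and 1 at 48 h, *SLC38A3*. Both called 0 in the mean. *SLC38A3*, a glutamine transporter, had a mean level of 23.2 ± 0.686 CPM in DMSO and 31.8 ± 2.3 CPM in Molidustat at 24 h, and of 25.7 ± 4.7 against 57.2 ± 13.6 CPM at 48 h. Its levels did not overlap between treatments at either time (log2 fold change 0.45 ± 0.31 and 1.14 ± 0.31, edgeR adjusted p = 0.999 and 0.191).

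In the supply of ammonia, glutamate and aspartate, 13 of 15 genes were tested and none was called by edgeR. *GLUL*, glutamine synthetase, which binds ammonia in another way than the urea cycle, stood at 402 ± 54.6 CPM in DMSO and 200 ± 85.3 CPM in Molidustat at 24 h, without overlap, and at 314 ± 200 against 268 ± 7.2 CPM at 48 h. Its mean log2 fold change was -0.62 ± 0.34 (edgeR adjusted p = 0.525), and -0.85 without DMSO 48 h replicate 2 (edgeR adjusted p = 0.0417), under the fold needed for a call. At 24 h, DESeq2 without DMSO 48 h replicate 2 called it lower. *SLC25A22*, a mitochondrial glutamate carrier, and *SLC1A5*, a neutral amino acid transporter, had mean log2 fold changes of -0.37 ± 0.34 and 0.33 ± 0.46, the latter 0.11 without that library.

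Ornithine, the other product of arginase, feeds proline and polyamine synthesis. Of 17 such genes, 16 were tested, none was called by edgeR, and their median log2 fold change in the mean of both times was -0.12. *OAT*, ornithine aminotransferase, had a mean log2 fold change of -0.46 ± 0.36, *PYCR1*, which makes proline, 0.27 ± 0.23, and *SMOX*, spermine oxidase, 0.24 ± 0.39. Without DMSO 48 h replicate 2 these were -0.61, 0.15 and 0.12. *AMD1*, which makes the aminopropyl donor for polyamines, had the most negative value of those named, -0.74 ± 0.24 (edgeR adjusted p = 0.222), with 252 ± 29.1 against 167 ± 73.8 CPM at 24 h and 197 ± 32.4 against 107 ± 17.6 CPM at 48 h. *PRODH*, proline dehydrogenase, was at 0 in all libraries.

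Of 18 genes of arginine use and transport, 11 were tested and none was called by edgeR in the fit of all 12 libraries. *AGMAT*, an enzyme related to arginase, stood at 175 ± 136 CPM in DMSO and 45.8 ± 19.8 CPM in Molidustat at 48 h. Its log2 fold change there was -1.91 ± 0.49 (edgeR adjusted p = 0.175) and -1.09 without DMSO 48 h replicate 2. edgeR called it lower at 48 h without DMSO 48 h replicate 1, and at 48 h and in the mean with no filter on low counts. *SLC7A2*, a cationic amino acid transporter that imports arginine, had a mean log2 fold change of 0.49 ± 0.21, *GATM*, the first enzyme of creatine synthesis, 0.34 ± 0.26, and *DDAH1*, which degrades methylated arginines, -0.59 ± 0.34. The *DDAH1* value was -0.15 without DMSO 48 h replicate 2. *NOS2*, *SLC7A3*, *SLC25A2* and *SLC14A1* were at 0 in all libraries, and *NOS1* and *NOS3* had 4 and 2 reads, so that the nitric oxide synthases, which also use arginine, were close to absent from these counts.

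The cytosolic carbamoyl phosphate pathway to pyrimidines was measured by 3 genes, none called by edgeR or DESeq2. *DHODH* and *UMPS*, its later enzymes, had mean log2 fold changes of -0.41 ± 0.38 and -0.27 ± 0.21, and of -0.62 and -0.31 without DMSO 48 h replicate 2. *CAD*, which holds the cytosolic carbamoyl phosphate synthetase and was named after its values were seen, stood at 6.53 ± 1.12 CPM in DMSO and 1.57 ± 1.43 CPM in Molidustat at 24 h, and at 7.43 ± 1.71 against 3.02 ± 0.506 CPM at 48 h. Its levels were lower in Molidustat without overlap at both times, and its mean log2 fold change of -1.62 ± 0.60 did not pass edgeR's test (adjusted p = 0.315).

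Among 13 known regulators of urea cycle genes, 12 were tested and none was called by edgeR in the filtered fit. *HNF4A*, a nuclear receptor of hepatocytes, differed at 48 h by -1.88 ± 0.82 on the log2 scale, which was -0.05 without DMSO 48 h replicate 2. With no filter on low counts, edgeR called it lower at 48 h and in the mean. *FOXA3*, a forkhead factor of the liver, was at 0.23 ± 0.26 in the mean of both times. The mitochondrial deacylases *SIRT3* and *SIRT5*, which act on urea cycle enzymes, were at -0.64 ± 0.53 and 0.48 ± 0.33.

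Hypoxia response genes served as a check of the treatment labels. Of the 9 reported, 8 were tested and were on average higher in Molidustat at each time, and edgeR called 4 of them for the 24 h contrast, 2 for the 48 h contrast and 5 in the mean, beside 0.231%, 0.231% and 1.03% of all genes. With 1 library left out the counts ranged from 2 (without DMSO 24 h replicate 1 or 2) to 5, from 1 (without any 1 Molidustat 48 h library) to 3, and from 5 to 6. By DESeq2 they were 6, 4 and 5. *BNIP3*, a mitophagy receptor, was at 158 ± 49 against 1111 ± 129 CPM at 24 h and 178 ± 26.9 against 1144 ± 52 CPM at 48 h. *PGK1*, a glycolytic kinase, rose by 2.80 ± 0.36 on the log2 scale at 24 h and by 1.99 ± 0.35 at 48 h, or 2.27 without DMSO 48 h replicate 2. *PDK1*, a pyruvate dehydrogenase kinase, *LDHA*, lactate dehydrogenase, and *NDRG1* were called in the mean, at 2.62 ± 0.46, 2.17 ± 0.27 and 2.36 ± 0.41, and at 3.03, 2.02 and 2.50 without that library. The smallest mean values were those of *EGLN3*, 0.84 ± 0.70, and *VEGFA*, 0.93 ± 0.21, neither called by edgeR with all libraries. Without that library they were 1.38 and 0.93.

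The genes whose log2 levels followed each member most closely were sought over 11 libraries, without DMSO 48 h replicate 2, among 9098 or 9099 genes with a mean of at least 10 CPM. The libraries share their groups and their scaling, so Pearson's r is given as a description. For *ARG1* these were *TF*, transferrin (r = 0.98), *EPO*, erythropoietin (0.97), and *PGM1*, phosphoglucomutase (0.97). *EPO* and *PGM1* were called higher in Molidustat at both times, and *TF* was called in the mean, with 1209 ± 84.9 against 2894 ± 320 CPM at 24 h and 1709 ± 931 against 4895 ± 669 CPM at 48 h. The levels of all 3, like those of *ARG1*, were in the order DMSO 24 h, DMSO 48 h, Molidustat 24 h and Molidustat 48 h by group mean. These genes were chosen for their likeness to *ARG1*, so the shared order is no separate evidence.

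The other members were followed by different genes. *SNHG30*, *SNX2* and *DUSP12* lay closest to *ARG2* (0.94, 0.93 and 0.92), and *SNHG30*, a non-coding RNA, differed between treatments by -1.55 (24 h) and 0.36 (48 h) on the log2 scale, beside -1.47 and 0.45 for *ARG2*. *LMBRD1*, *APOH* and *TSPAN13* lay closest to *ASS1* (each 0.89), *GUSB*, *BAG6* and *MTG1* to *ASL* (0.92, 0.92 and 0.89) and *TNRC18*, *ZCCHC17* and *ADORA2A-AS1* to *NAGS* (0.85, 0.83 and 0.83). *ACAT1*, *SNU13* and *TBC1D23* lay closest to *SLC25A13* (0.95, 0.93 and 0.90), and *WDR89*, *RAMP1* and *MRPS15* to *SLC25A15* (0.87, 0.84 and 0.84).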

How the data were processed

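Total RNA of 12 Huh7 cultures was made into 3′ libraries (QIAseq UPX 3′). The authors deposited HTSeq 0.11.2 counts per gene after cutadapt 1.9.1 and STAR 2.7.9a on GRCh38, per the labels and the study's methods. The annotation release, strand setting and use of molecular identifiers are not given in the sources used here, and copies of 1 molecule may have been counted more than once. The 5 summary lines (17.1% to 50.4% of reads outside genes) were left out. Ensembl identifiers were matched to GENCODE 44 names (60437 of 60666), and promoters to RefSeq. Pseudogenes of *ASS1*, 14 in number, held 36 reads against 787 of the gene.

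Genes were kept by filterByExpr (minimum count 10, total 15) and fitted over 4 group means in edgeR 4.0.16 (R 4.3.3), with TMM factors, the quasi-likelihood test and Benjamini-Hochberg adjustment over 14274 genes. Calls needed both an adjusted p below 0.05 and a change beyond 1 on the log2 scale. DESeq2 1.42.0 and limma-voom 3.58.1 were alternatives, with other scaling, no filter, a replicate block, each time alone and each library left out. The limma-voom fit used sample quality weights, which count uneven libraries less. The weight was 0.298 for DMSO 48 h replicate 2 and 0.418 to 2.05 for the other libraries. The study's methods describe the replicates of each condition as biological. P-values measure the spread between these samples, and part of that spread may be technical. Replicates differed beyond sampling noise.

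Members and lists were chosen with earlier results of these data known. Named from each list were all genes called, and the 2 highest and 2 lowest by mean log2 fold change with at least 5 CPM. Likeness was Pearson's r of log2 CPM with a prior count of 2. On simulated data, edgeR recovered 42.5% at 24 h and 34% at 48 h of 200 genes changed by a log2 of 2 among 14274. A gene of the hypoxia list is not reported here.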

Additional observations from a re-analysis of the deposited data

How the results depend on the processing

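The direction of *ARG1* was kept under all alternatives run, with log2 fold changes of 2.91 to 3.66 at 24 h, 2.99 to 3.56 at 48 h and 3.10 to 3.47 in the mean. It was called in all of them but 1: at 48 h, with each time point alone, 0 members were called (adjusted p = 0.0569 by edgeR). Each fit of a time point alone has fewer libraries than the main fit. The 24 h one kept the *ARG1* call (edgeR adjusted p = 0.00156), and the cause of the difference was not tested. Between times in DMSO, 1 member, *ARG1*, was called with no filter on low counts and 1, *ARG1*, with DESeq2 without DMSO 48 h replicate 2. The latter also called 1, *ARG1*, between times in Molidustat. This DESeq2 fit was chosen after seeing the data, and the causes were not tested. Leaving out 1 library at a time gave 1 member for each Molidustat comparison and 0 between times. For the 6 other members tested, 371 alternative values were computed, of which 32 changed sign, all without a call.

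The log2 ratio of *ARG2* to *ARG1* differed by -3.03 to -3.94 when 1 library was left out (exact p up to 0.02). With same-numbered replicates paired as a replicate block, the difference was -3.41 with an exact sign-flip p of 0.0625. The block changed no call of a member (1 at 24 h, 1 at 48 h, 1 in the mean and 0 in the others). Whether same-numbered libraries are pairs is not given in the sources used here. Their deviations from the group means correlated by -0.09 to 0.14 over all genes tested, which cannot settle it, since noise may hide a shared part.

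Counts over all genes moved more. At 24 h, 33 genes were called, against 142 by DESeq2, 106 with no filter, 64 by limma-voom and 57 with this time alone. At 48 h, 33 were called, against 350, 764, 278 and 7, and of the 350 and 764, 178 and 610 were lower, against 3 of 33. In the mean, 147 were called, against 289, 442 and 314. DESeq2 and the fit with no filter called 4 and 321 for the difference between times, 40 and 400 between times in DMSO (1 by edgeR) and 12 and 4 in Molidustat. Leaving out 1 library gave 20 to 116 calls at 24 h, the most without DMSO 48 h replicate 2, and 13 to 327 at 48 h, the most without DMSO 48 h replicate 1 and the fewest without Molidustat 48 h replicate 3. In the mean it gave 78 to 209, with these extremes without Molidustat 48 h replicate 3 and DMSO 48 h replicate 2. Scaling by total counts moved the median log2 fold change of all genes at 48 h to 0.13. The low counts of *CPS1*, *OTC* and *NAGS* limit what can be said of them.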
